A study of Mus musculus with 6 samples.

Results

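The genes described here are 31 members of a glycolysis and hypoxia-inducible module, out of 22274 genes in the deposited table. They were taken by name: 14 encode glycolytic enzymes, and 17 are hypoxia-inducible factor (HIF) targets, HIF regulators, transporters or regulators of glycolytic flux. Of the 31, 29 were found by symbol, and Gpi1 (listed as Gpi) and Car9 (listed as Ca9) were found by gene identifier. A further 3 rows that carry the symbols Eno1 or Gapdh but other gene identifiers were left out. They held 103 (Eno1b), 85 (Gm10358) and 63 (Gm3839) summed counts over 6 libraries, against 129093 for Eno1 and 214943 for Gapdh.

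RNA-seq had been run on 6 libraries from mouse kidney cells that the labels call primary renal fibroblasts. In 3 control libraries the cells, labelled wild type, carried a scrambled control siRNA, and in 3 others they carried an siRNA against Prune2, which lowers its mRNA rather than deleting the gene. Both groups had received TGF-β at 5 ng/ml for 48 h, so no library shows the unstimulated level. The labels name no low-oxygen condition, no siRNA sequence and no origin of the replicates, so each p-value reflects only how far these particular libraries spread, and that spread may be technical.

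Glycolysis splits glucose into pyruvate in the cytosol, and lactate dehydrogenase turns pyruvate into lactate when mitochondria do not take it up. HIF-1 is a pair of proteins, an oxygen-labile alpha subunit encoded by Hif1a and a stable partner encoded by Arnt. Prolyl hydroxylases encoded by the Egln genes mark the alpha subunit for degradation when oxygen is present, and in low oxygen the pair binds the core sequence ACGTG or GCGTG near genes for glycolytic enzymes, glucose uptake, angiogenesis and mitophagy. In kidney, the tubules of the outer medulla work at low oxygen tension, and TGF-β is known to raise glycolytic genes in fibroblasts. Because HIF-1 is regulated largely through the stability of its protein, a transcript table sees it mainly through its target genes.

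Libraries held 20075265 to 23234797 counts. Prune2 itself was at 6.49, 7.85 and 6.52 CPM (counts scaled to library size) with control siRNA, against 3.78, 3.19 and 4.44 CPM with Prune2 siRNA. It fell by 45.3%, a log2 fold change of -0.87 (SE 0.15), with an adjusted p of 0.000214 in edgeR's quasi-likelihood test. On the log2(FPKM + 1) scale it was -0.24, with an adjusted p of 0.0769 in limma. The cells' label was checked against marker genes. Of 12 fibroblast markers 9 passed the filter on low counts. Control means were 570 CPM for Vim, 236 CPM for Col1a1, 86.0 CPM for Col1a2, 38.9 CPM for Pdpn and 19.7 CPM for Pdgfrb, while Dcn, Lum and Fap had group means of at most 0.480 CPM. Of 21 tubular epithelial markers 16 passed. Control means were 2420 CPM for Krt8, 1055 CPM for Cdh1 and 428 CPM for Epcam, while Umod (1.38 CPM) and Hnf4a (1.28 CPM) were low and Slc34a1 and Aqp2 were at 0. Both fibroblast and epithelial genes were thus detected under the fibroblast label. Summed CPM over the leukocyte markers lay between 239 and 294 with control siRNA and between 62.9 and 67.8 with Prune2 siRNA, and over the fibroblast markers between 953 and 995 and between 729 and 773. These sums separate the same libraries as the comparison below, and their part in the members' differences was not tested.

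Most of the module differed little between the groups. Of its 30 members that passed the filter on low counts, 2 rose with Prune2 siRNA and 0 fell, at an adjusted p under 0.05 in edgeR's quasi-likelihood test. The same test called 10.3% of all 13248 genes tested, 4.46% higher and 5.83% lower. The genes that rose were Pfkl, a phosphofructokinase isozyme (log2 fold change 0.15, or 1.11-fold), and Ndrg1, a hypoxia- and stress-inducible gene (log2 fold change 0.14). At an unadjusted p under 0.05, 5 members lay higher and 0 lower, against 9.46% of all genes higher and 10.6% lower. DESeq2 called 1 member higher and 0 lower (all genes 3.48% and 4.93%), and limma-voom called 2 higher and 0 lower (4.4% and 5.8%). The members that passed had a median log2 fold change of 0.06, against 0.00 for all genes tested, and 24 lay above 0 and 6 below, against 51.7% above 0 among all genes.

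The log2 fold changes were estimated narrowly. For 22 of the 30 members the whole 95% interval lay within 1.2-fold in either direction, and for 29 it lay within 1.5-fold. Among all 13248 genes tested, 7328 and 10684 had intervals within these limits, which were not set in advance. The exception was Car9, a membrane carbonic anhydrase with 7 to 16 counts a library and an interval from -0.96 to 0.78 on the log2 scale. CPM values of the groups did not overlap for 9 members, 7 higher and 2 lower with Prune2 siRNA. Among all genes tested 24.3% did not overlap, 11.9% higher and 12.4% lower.

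**Figure D1:**
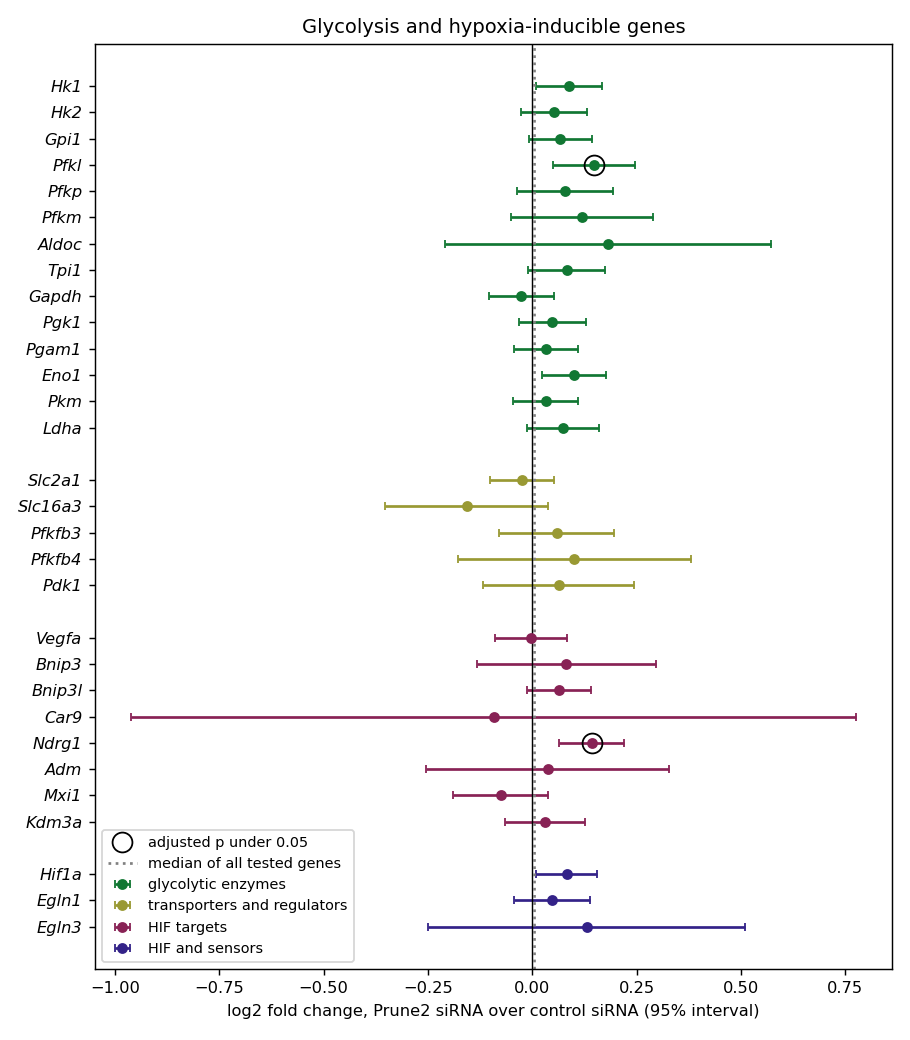
Log2 fold change of each tested member, Prune2 siRNA over control siRNA, with its 95% interval, coloured by role; rings mark called genes and the dotted line is the median of all genes tested. Pfkl (0.15) and Ndrg1 (0.14) are called, most intervals lie close to 0, and Car9 has the widest.

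Because many hypoxia-inducible genes carry the HIF core near their start, the 250 bases before the RefSeq starts (GRCm38.p6) of the members were searched for ACGTG and GCGTG on both strands, so that CACGT and CACGC on the printed strand also count. The table held 45 such windows for 29 members; Ndrg1 and Bnip3l had no entry. Of the members' windows 35, or 77.8%, held either core, against 38.6% of all 32851 windows. These shares are by window and not by gene, and they count matches in exon bases too. Some windows were mostly exon, as 1 Eno1 window with 245 of its 250 bases. Some windows of a gene overlap, as for Eno1 and Pfkm, so the same match can count more than once. GC content differed too, with a median of 60.0% in the members' windows and 52.4% in all. Among the 7891 windows with 55 to 65% GC, 52.4% held either core. ACGTG alone was in 44.4% of the members' windows, 16.6% of all and 20.8% of those with 55 to 65% GC. Either core was in 78.3% of the windows of glycolytic enzymes and 77.3% of those of the other members, and ACGTG in 30.4% and 59.1%. A match is a run of 5 letters and no evidence that a factor binds there.

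Windows before a RefSeq start are shown for 5 members, because they carry the core in different arrangements. The 5 include Pfkl, which rose, and Slc16a3, which had the most negative estimate. Capitals mark each ACGTG or GCGTG and its reverse complement. Exons were trimmed away from these printed stretches, not from the windows behind the shares. Pfkl is read from the minus strand, chr10:78009808-78010004, and has 1 GCGTG at 99 to 95 bases before the start. Eno1 is read from the plus strand, chr4:150236458-150236707, and has 1 GCGTG at 230 to 226 bases before the start. Pgk1, plus strand, chrX:106186850-106187099, has ACGTG and CACGT close together. Ldha, plus strand, chr7:46845554-46845803, has CACGTG at 2 places, a palindrome (E-box) that holds ACGTG on both strands, and a further CACGT. This Ldha start lies within an intron of a longer transcript, and the bases after it were not found in an Ldha transcript of GENCODE M21. The other Ldha window, whose following bases were found in a transcript, holds 1 CACGC and is not shown. The bases were looked for anywhere in a transcript, so transcript starts were not compared. Slc16a3, plus strand, chr11:120948817-120949052, shows 1 ACGTG, and the other of its window lies in the trimmed exon. Gene bounds put the shown Pfkl stretch (gene end 78010083, minus strand) and the Slc16a3 stretch (gene start 120948480) inside their genes. Both stretches thus precede a later RefSeq start and are not upstream of the whole gene.
Pfkl: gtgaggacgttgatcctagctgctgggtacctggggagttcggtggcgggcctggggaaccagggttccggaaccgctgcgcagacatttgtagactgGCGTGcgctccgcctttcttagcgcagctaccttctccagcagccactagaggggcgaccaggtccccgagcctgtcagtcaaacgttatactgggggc
Eno1: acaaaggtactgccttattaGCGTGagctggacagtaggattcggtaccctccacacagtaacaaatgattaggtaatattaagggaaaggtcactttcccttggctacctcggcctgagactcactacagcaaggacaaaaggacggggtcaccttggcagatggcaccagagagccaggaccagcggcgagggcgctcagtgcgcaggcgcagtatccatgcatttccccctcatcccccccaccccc
Pgk1: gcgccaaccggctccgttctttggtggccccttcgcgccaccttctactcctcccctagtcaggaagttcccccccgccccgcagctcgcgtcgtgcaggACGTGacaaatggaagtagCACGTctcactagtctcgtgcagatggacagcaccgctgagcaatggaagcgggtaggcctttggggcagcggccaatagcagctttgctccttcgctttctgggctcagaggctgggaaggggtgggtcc
Ldha: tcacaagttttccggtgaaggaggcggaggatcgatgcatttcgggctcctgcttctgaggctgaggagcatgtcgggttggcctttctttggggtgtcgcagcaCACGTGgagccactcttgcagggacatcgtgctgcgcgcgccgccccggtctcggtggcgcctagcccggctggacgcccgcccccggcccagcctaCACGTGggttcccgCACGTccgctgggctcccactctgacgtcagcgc
Slc16a3: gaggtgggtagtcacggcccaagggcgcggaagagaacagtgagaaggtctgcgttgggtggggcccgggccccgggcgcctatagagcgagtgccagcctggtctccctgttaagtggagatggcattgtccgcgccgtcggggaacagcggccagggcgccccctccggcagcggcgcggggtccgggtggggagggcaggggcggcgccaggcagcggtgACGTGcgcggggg
CACGTG was in 11.1% of the members' windows, 6.02% of all and 8.16% of those with 55 to 65% GC.

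Among the 14 glycolytic enzymes, 1 rose (Pfkl) and 0 fell, where 4.46% of all genes rose and 5.83% fell. At an unadjusted p under 0.05, 3 lay higher and 0 lower, where 9.46% of all genes lay higher. DESeq2 called 0 of them, and limma-voom called 1 higher, where they called 3.48% and 4.4% of all genes higher. Log2 fold changes ran from -0.03 for Gapdh to 0.18 for Aldoc, with a median of 0.08 and 13 of 14 above 0. The median was 0.04 without control replicate 3 and 0.05 without Prune2 siRNA replicate 1. Groups did not overlap for 3 of the 14, Pfkl, Pfkm and Eno1, all higher with Prune2 siRNA. Of all genes tested 24.3% did not overlap, and 11.9% did so with Prune2 siRNA higher. Summed over the 14 genes, the control libraries held 5280, 5309 and 5003 CPM and the Prune2 siRNA libraries 5499, 5239 and 5272 CPM, so the sums overlapped.

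Phosphofructokinase commits fructose 6-phosphate to glycolysis, and Pfkl is its liver-type isozyme. Pfkl (chromosome 10, 77986947 to 78010083, minus strand, protein-coding) had 58.3, 58.5 and 57.6 CPM with control siRNA, against 66.9, 61.8 and 64.6 CPM with Prune2 siRNA. All the Prune2 siRNA libraries lay above all the controls, which were themselves close together. The log2 fold change was 0.15 (SE 0.05, 95% interval 0.05 to 0.25), with an adjusted p of 0.0474. The call is near the threshold: of 13 alternative analyses 5 kept it, and adjusted p ranged from 0.0256 to 0.824. It was lost without control replicate 1 (adjusted p = 0.117), 2 (0.124) or 3 (0.138) and without Prune2 siRNA replicate 1 (0.211) or 3 (0.136). In the deposited FPKM values, which scale fragments to transcript length, Pfkl was at 21.4, 20.4 and 24.0 in the control libraries and 22.9, 24.6 and 20.9 with Prune2 siRNA, and the groups overlapped. The other phosphofructokinases, Pfkp (platelet type, log2 fold change 0.08) and Pfkm (muscle type, 0.12), were not called. By FPKM, Pfkl made up 55.3% ± 2.70 of the family in the control group and 54.4% ± 1.70 (SD, n = 3) with Prune2 siRNA, so the mix of isozymes overlapped.

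Eno1 encodes the main enolase, which makes phosphoenolpyruvate. It was at 974, 965 and 914 CPM with control siRNA, against 1056, 986 and 1017 CPM with Prune2 siRNA. The groups did not overlap, but the log2 fold change of 0.10 (SE 0.04) missed the threshold at an adjusted p of 0.0923. It passed without the filter (0.0407) and without Prune2 siRNA replicate 2 (0.0395), and adjusted p ranged from 0.0395 to 0.365 over the alternatives.

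Hexokinases trap glucose in the cell as glucose 6-phosphate. Hk1, the widely expressed isozyme, had 239, 230 and 228 CPM with control siRNA, against 256, 250 and 235 CPM with Prune2 siRNA. The groups overlapped by 1 library on each side, the log2 fold change was 0.09 (SE 0.04) and the adjusted p was 0.180. Hk2, the inducible isozyme, had a log2 fold change of 0.05 with an interval from -0.03 to 0.13.

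Gapdh was the highest member by FPKM and the only glycolytic enzyme below 0. This dehydrogenase, often used as a reference gene, stood at 1730, 1664 and 1581 CPM with control siRNA, against 1688, 1588 and 1609 CPM with Prune2 siRNA. The groups overlapped, and the log2 fold change of -0.03 had an interval from -0.10 to 0.05. Without control replicate 1 it was 0.00.

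The remaining enzymes of the pathway were not called. Their log2 fold changes were 0.07 for Gpi1 (glucose 6-phosphate isomerase), 0.08 for Tpi1 (triose phosphate isomerase), 0.05 for Pgk1 and 0.03 for Pgam1 (phosphoglycerate kinase and mutase), 0.03 for Pkm (pyruvate kinase, muscle type) and 0.07 for Ldha (lactate dehydrogenase A). Each of these 6 had an interval that excluded a 1.5-fold difference. Aldoc, a brain-type aldolase at 2.78 to 3.87 CPM, had an estimate of 0.18 with a wide interval, -0.21 to 0.57. Leaving out control replicate 3 gave 0.10, leaving out Prune2 siRNA replicate 1 or 3 gave 0.11, and leaving out replicate 2 of either group gave 0.31. The main aldolase, Aldoa, is no member; its log2 fold change was 0.06.

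**Figure D2:**
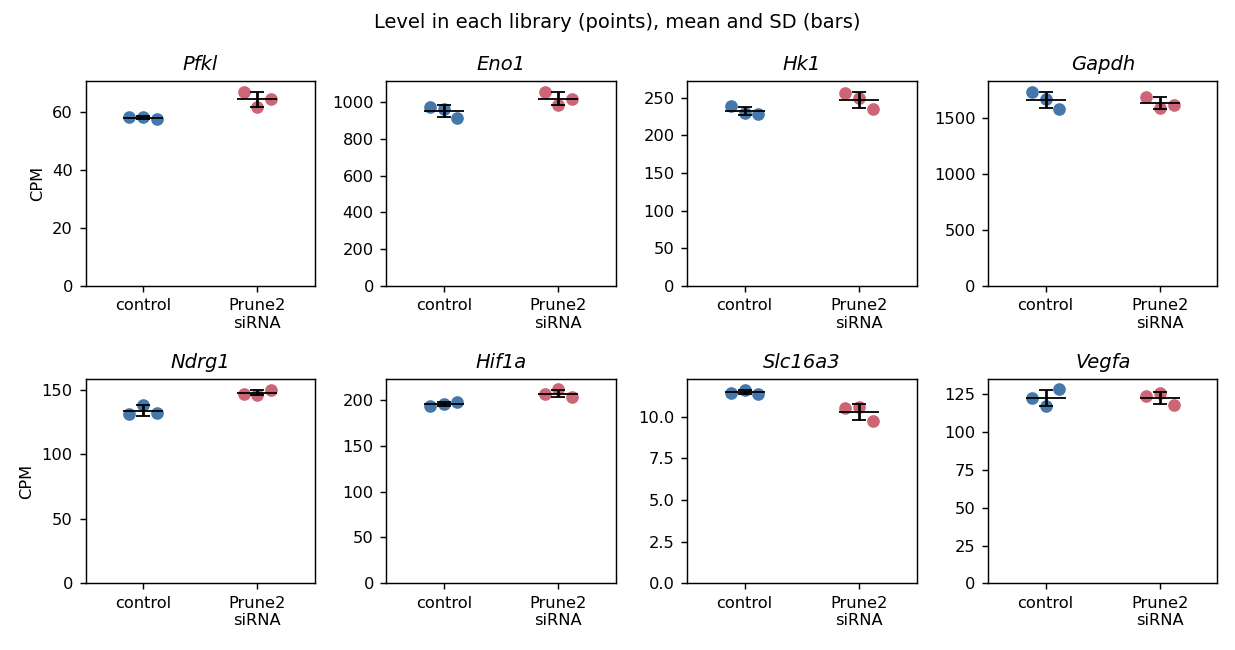
CPM of 8 members in each library, points for the 3 libraries of a group, with the group mean and SD as bars; axes start at 0. Pfkl, Eno1, Ndrg1 and Hif1a show every Prune2 siRNA library above every control library, Slc16a3 shows the reverse, and Hk1, Gapdh and Vegfa overlap.

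**Figure D3:**
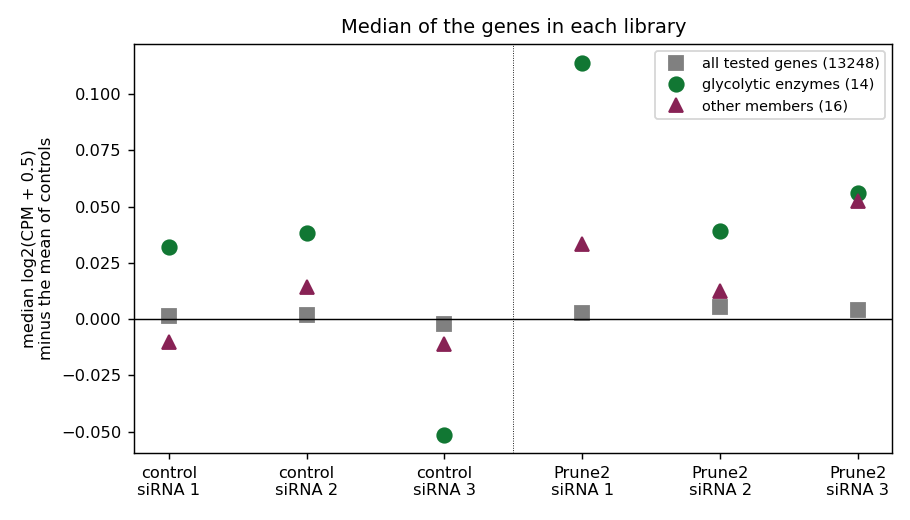
Median of log2(CPM + 0.5) minus the control mean in each library (y axis, log2 units), for glycolytic enzymes, the other members and all genes tested. For the glycolytic enzymes control replicate 3 is lowest (-0.05) and Prune2 siRNA replicate 1 highest (0.11), and Prune2 siRNA replicate 2 (0.04) is level with control replicate 2 (0.04).

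Library medians put these small differences beside the spread within a group. For the glycolytic enzymes the median deviation was 0.03, 0.04 and -0.05 in the control libraries and 0.11, 0.04 and 0.06 with Prune2 siRNA. The lowest Prune2 siRNA library was level with the highest control library. For all genes tested it lay within 0.01 of 0 in each library.

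Members outside the glycolytic enzymes had small differences in both directions. Of the 17, 16 passed the filter, and 1 rose and 0 fell, where 4.46% of all genes rose and 5.83% fell. At an unadjusted p under 0.05, 2 lay higher and 0 lower, near the 9.46% of all genes that lay higher. DESeq2 and limma-voom each called 1 higher and 0 lower, where they called 3.48% and 4.4% of all genes higher. Their median log2 fold change was 0.05, with 11 above 0 and 5 below, and without control replicate 3 it was 0.03. Groups did not overlap for 6 of the 16, 4 higher (Ndrg1, Bnip3l, Hif1a and Egln1) and 2 lower (Slc16a3 and Mxi1). For all genes tested the share without overlap was 24.3%, with 11.9% higher and 12.4% lower.

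Ndrg1, which encodes a cytoplasmic protein induced by hypoxia and differentiation, lies on chromosome 15 (66929318 to 66969640, minus strand, protein-coding). It was at 131, 139 and 132 CPM with control siRNA, against 147, 146 and 150 CPM with Prune2 siRNA. Each Prune2 siRNA library lay above each control. The log2 fold change was 0.14 (SE 0.04, interval 0.06 to 0.22), with an adjusted p of 0.0137. It was called in 9 of 13 alternatives, with adjusted p from 0.0086 to 0.150. The call was lost without control replicate 1 (0.0864), control replicate 3 (0.0673) or Prune2 siRNA replicate 3 (0.0807). FPKM pointed the same way, from 46.4 ± 1.46 to 51.5 ± 0.981 (SD, n = 3), with an adjusted p of 0.150 in limma. In the authors' deposited table Ndrg1 was the only member with an adjusted p under 0.05 (0.0218), where 7.68% of the tested genes passed; Eno1 had 0.0597 and Pfkl 0.151 there.

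None of the other 7 tested HIF targets was called by edgeR, and none had an unadjusted p under 0.05. Over all genes edgeR called 10.3%, and 9.46% lay higher and 10.6% lower at an unadjusted p under 0.05. Vegfa, the angiogenic growth factor, had a control mean of 123 CPM ± 5.36 and a Prune2 siRNA mean of 122 CPM ± 4.06 (SD, n = 3), a log2 fold change of 0.00 with an interval from -0.09 to 0.08. Bnip3l, a mitophagy receptor, had non-overlapping groups, at 129 to 133 CPM and 136 to 138 CPM, with a log2 fold change of 0.06 and an adjusted p of 0.364. Its relative Bnip3 had 0.08 (interval -0.13 to 0.30). Log2 fold changes were 0.04 for Adm (the vasodilator adrenomedullin), -0.08 for Mxi1 (a Max-binding antagonist of Myc) and 0.03 for Kdm3a (a histone H3 lysine demethylase).

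Car9 and Ankrd37 are often read as sensitive reporters of HIF activity, and both were near the floor of these libraries. Ankrd37, the lowest member, had 2, 5 and 3 counts in the control libraries and 10, 1 and 16 counts with Prune2 siRNA. The Prune2 siRNA libraries lay on both sides of the controls, and the gene did not pass the filter. Tested without the filter it had a log2 fold change of 1.31 (SE 0.68) and an adjusted p of 0.300 in edgeR's test. In some settings with 1 library left out Ankrd37 passed the filter and was not called. There the log2 fold change ran from 1.07 without control replicate 1 (adjusted p = 0.517) to 1.85 without Prune2 siRNA replicate 2 (0.0511). Car9 had 8, 14 and 12 counts against 7, 11 and 16 counts, and differences short of its wide interval were not detectable at this depth.

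Hif1a and the oxygen sensors had estimates above 0, and none of the 3 was called by edgeR, DESeq2 or limma-voom. At an unadjusted p under 0.05 in edgeR's test, 1 of 3 lay higher. Over all genes edgeR called 4.46% higher and 5.83% lower, and 9.46% lay higher at an unadjusted p under 0.05. So few genes cannot be told from these shares. Hif1a had 193, 195 and 197 CPM with control siRNA, against 206, 211 and 203 CPM with Prune2 siRNA. The groups did not overlap, the log2 fold change was 0.08 (SE 0.04, interval 0.01 to 0.16) and the adjusted p was 0.179. Egln1, the main HIF prolyl hydroxylase, lay at 67.6 to 69.9 CPM and 70.2 to 71.2 CPM, a log2 fold change of 0.05. Egln3, a hydroxylase that is itself HIF-inducible, had 3.56, 4.05 and 3.65 CPM and 5.43, 3.58 and 3.37 CPM. Only Prune2 siRNA replicate 1 of Egln3 was high, and the log2 fold change of 0.13 (SE 0.18) was -0.11 without it.

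Transporters and flux regulators had 0 called of 5 by edgeR, DESeq2 or limma-voom, and 0 at an unadjusted p under 0.05 in edgeR's test. Over all genes edgeR called 10.3%, and 9.46% lay higher and 10.6% lower at an unadjusted p under 0.05. With 5 genes, 0 called cannot be told from these shares. Slc2a1, the GLUT1 glucose transporter, had a log2 fold change of -0.02 with an interval from -0.10 to 0.05. Slc16a3, the MCT4 lactate exporter, was at 11.4, 11.6 and 11.4 CPM with control siRNA, against 10.5, 10.6 and 9.74 CPM with Prune2 siRNA. It had the most negative estimate of the tested members, -0.16 (SE 0.09), with an adjusted p of 0.392, although the groups did not overlap. Log2 fold changes were 0.06 for Pfkfb3 and 0.10 for Pfkfb4, which set the level of the phosphofructokinase activator fructose 2,6-bisphosphate, and 0.06 for Pdk1, a kinase that inhibits pyruvate dehydrogenase.

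Levels between genes were compared by FPKM. In the control group Gapdh was highest at 1256 ± 58.2, followed by Eno1 at 468 ± 14.7, Pkm at 350 ± 19.1, Pgam1 at 193 ± 7.49 and Ldha at 175 ± 11.6 FPKM (SD, n = 3). Gpi1 followed at 118 ± 6.28 FPKM, and Pgk1, at 97.7 ± 3.39 FPKM, did not differ from Tpi1 (SD 6.06) beyond their spread. Slc2a1 (64.0 ± 1.68 FPKM) was the highest member outside the enzymes, above Vegfa (48.4), Ndrg1 (46.4) and Hif1a (42.1). The first 8 places were enzymes, and the lowest 6 were Pdk1, Pfkfb4, Aldoc, Egln3, Car9 and Ankrd37, between 0.173 and 2.54 FPKM.

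**Figure D4:**
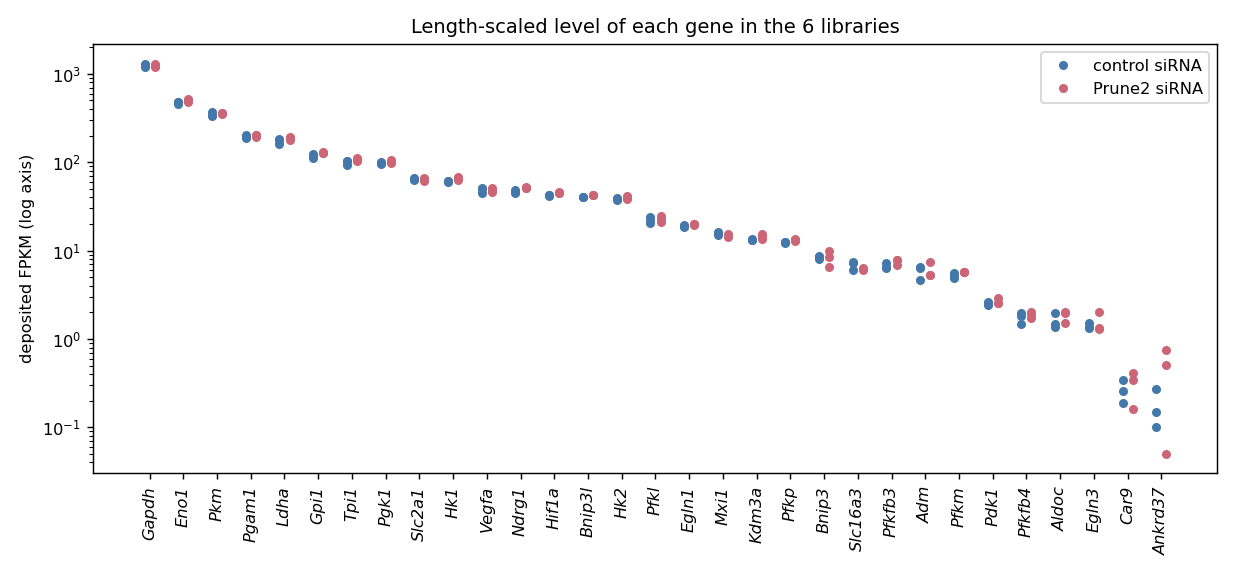
FPKM of each member on a log axis, ordered by the control mean, with 1 point per library coloured by group. Glycolytic enzymes hold the first 8 places, Gapdh at 1256 FPKM in the control group, and Car9 and Ankrd37 lie lowest.

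Genes around the module were taken from lists of related genes. In glycolysis, pyruvate handling, gluconeogenesis, HIF machinery and HIF targets outside the module, 93 of 105 genes were tested, 4 rose and 7 fell, and the median log2 fold change was 0.01. Over all genes tested 4.46% rose and 5.83% fell. Among 20 tested glycolysis genes 1 rose and 2 fell. Ldhb, the heart-type lactate dehydrogenase, had 268, 277 and 289 CPM with control siRNA, against 358, 333 and 367 CPM with Prune2 siRNA. It rose 1.27-fold, a log2 fold change of 0.34 (SE 0.04), with an adjusted p of 7.25e-07, and was called in all 13 alternatives. Ldha itself was not called. The share of Ldha in the FPKM of both genes was 46.5%, 45.3% and 41.4% in the control libraries and 40.7%, 40.6% and 39.2% with Prune2 siRNA. The shares did not overlap, though control replicate 3 lay close to the Prune2 siRNA libraries; they were not tested.

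Hk3, a hexokinase of myeloid cells, had 47, 41 and 39 counts in the control libraries and 7, 6 and 6 counts with Prune2 siRNA. The mean fell from 2.01 to 0.283 CPM, a log2 fold change of -2.81 (SE 0.34) with an adjusted p of 1.6e-06. Leukocyte markers fell with it: 19 of 20 tested markers fell and 0 rose, where 5.83% of all genes fell and 4.46% rose. The smallest adjusted p was for Cd74 (log2 fold change -2.95) and Laptm5 (-2.74), while Cd3e was at 0 in all libraries. The markers' part in the result for Hk3 was not tested. In bulk RNA fewer cells of a type and less RNA per cell cannot be told apart. Hk3 made up 0.620% of hexokinase FPKM in the control group, and Hk1 with Hk2 made up nearly all of the rest. Pklr, the liver and red cell pyruvate kinase, had 4.79, 3.55 and 4.43 CPM and 3.11, 1.70 and 3.33 CPM. It fell by 0.65 on the log2 scale with an adjusted p of 0.0480, and was called in 9 of the 13 alternatives, with adjusted p of up to 0.256. Of 16 tested tubular epithelial markers 4 rose and 3 fell, both above the shares of all genes (4.46% and 5.83%). Summed CPM over these markers was 7384 to 7537 with control siRNA and 6888 to 7446 with Prune2 siRNA, with Aqp2 and Slc34a1 at 0. The part of the tubular markers in the result for Pklr was not tested.

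**Figure D5:**
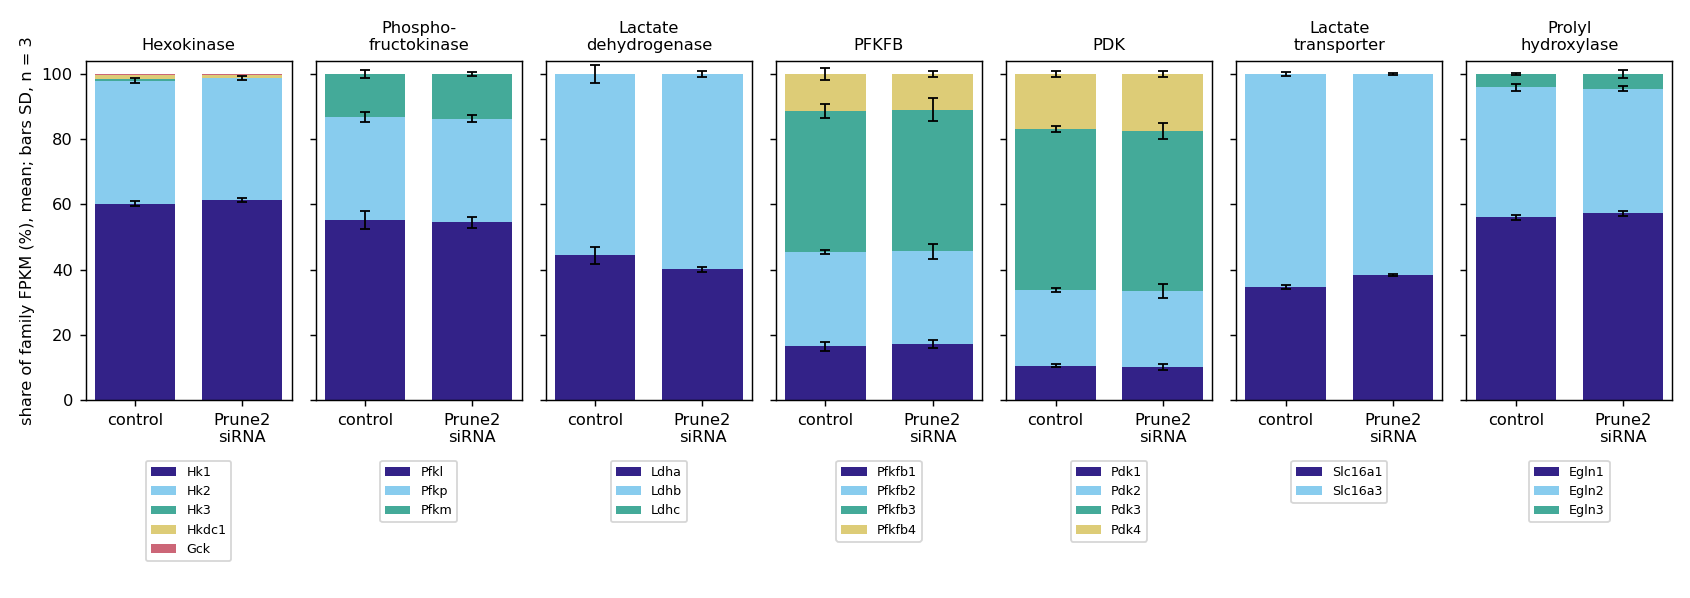
Mean share of each isozyme in the summed FPKM of its family, in percent, as stacked bars per group with SD (n = 3), for 7 families. Ldha has 44.4% in the control group and 40.1% with Prune2 siRNA, Slc16a3 65.3% and 61.6%, and Pfkl 55.3% and 54.4%.

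Among 13 tested pyruvate-handling genes edgeR, DESeq2 and limma-voom each called 0, and 1 had an unadjusted p under 0.05 in edgeR's test. Neither tested gluconeogenesis gene, Pck2 or G6pc3, was called by these tests, and 0 had an unadjusted p under 0.05. Over all genes edgeR called 10.3%, and 9.46% lay higher and 10.6% lower at an unadjusted p under 0.05. Counts over so few genes cannot be told from these shares. Of 19 tested genes of the HIF machinery 0 rose and 2 fell, beside 4.46% and 5.83% of all genes. Epas1, which encodes HIF-2 alpha, had 7.86 to 9.17 CPM with control siRNA and 5.80 to 6.61 CPM with Prune2 siRNA, without overlap. It fell by 0.47 on the log2 scale (SE 0.12), with an adjusted p of 0.00957. The call was lost on the FPKM scale (-0.26, adjusted p = 0.0504) and without Prune2 siRNA replicate 2 (-0.41, adjusted p = 0.0539). Epas1 is abundant in endothelium; 7 of 15 tested endothelial markers fell and 0 rose, with summed CPM of 160 to 175 in the control libraries and 120 to 126 with Prune2 siRNA, none at 0, and their part in the result was not tested. Arntl, the clock factor BMAL1 and a relative of Arnt, had 30.9, 28.8 and 31.9 CPM and 26.7, 24.1 and 24.4 CPM. It fell by 0.29 (SE 0.07), with an adjusted p of 0.0038, and 12 of 13 alternatives called it; on the FPKM scale its adjusted p was 0.0657. Hif1a held 96.2% of the FPKM of the HIF alpha subunits in the control group and 97.3% with Prune2 siRNA.

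HIF targets outside the module went in both directions, 3 rising and 3 falling of 39 tested, with a median log2 fold change of 0.00. Over all genes tested 4.46% rose and 5.83% fell. Car12 (a carbonic anhydrase, 0.65), Vldlr (a lipoprotein receptor, 0.23) and Pnrc1 (a nuclear receptor coactivator, 0.20) rose. Plod2 (a collagen lysyl hydroxylase, -0.36) and Angptl4 (a lipoprotein lipase inhibitor, -0.25) were among those that fell, with an adjusted p of 5.46e-08 for Plod2 and 0.0108 for Angptl4. Car12 and Plod2 were called in all 13 alternatives. On the FPKM scale adjusted p was 0.251 for Vldlr, 0.0700 for Pnrc1 and 0.0758 for Angptl4, and the calls were also lost for Pnrc1 without control replicate 3 (0.0826) and for Angptl4 without control replicate 2 (0.0880). In the same libraries 3 of 9 tested fibroblast markers (Vim, Col1a1 and Col1a2) fell and 0 rose, and their part in the result for Plod2 was not tested. In the pathway annotation of the deposited table, 2 of 49 tested glycolysis and gluconeogenesis genes rose and 2 fell. For HIF-1 signalling 5 of 97 rose and 9 fell, beside 4.46% and 5.83% of all genes. The falls include Cybb (-3.24), Prkcb (-2.83), Hk3 (-2.81) and Pik3cd (-1.58), genes of leukocytes, beside 19 of 20 tested leukocyte markers that fell; the markers' part in that count was not tested. Without the members the medians were 0.00 for each annotation.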

How the data were processed

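RNA-seq libraries (3 control siRNA, 3 Prune2 siRNA) were grouped by their sample titles. The authors deposited 1 table with, per the file headers, a raw read count and an FPKM value per gene and library, and the authors' log2 fold change, p-value and adjusted p-value. The submitters' processing notes name GRCm38 and mm10, and which aligner and counter were run is not given in the sources used here. Counts were tested with edgeR 4.0.16 (R 4.3.3; TMM, filterByExpr, glmQLFit, glmQLFTest; Benjamini-Hochberg over 13248 genes), called at an adjusted p under 0.05. CPM used TMM-scaled library sizes. The SE is the log2 fold change over the square root of F. Gene identifiers were matched through GENCODE M21. FPKM was tested with limma 3.58.1 on log2(FPKM + 1); DESeq2 1.42.0, limma-voom, other scalings, no filter, a replicate block and leaving out each library were the other alternatives. The fit was tested on simulated counts. All 31 members are named; called members, the highest and lowest, and those with an adjusted p under 0.2 have values by library, and others were added after their values were seen. Other lists name up to 3 called genes per direction, and 1 gene that this rule names is not reported here. The members and lists were chosen with earlier results of these data known. Promoter sequences are RefSeq's, GRCm38.p6.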

Additional observations from a re-analysis of the deposited data

How the results depend on the processing

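In 13 alternatives the number of all genes called was 1364 in the main analysis, 613 with limma on log2(FPKM + 1), and 997 to 1249 when 1 library was left out. The members called were 2 in the main analysis, 1 with upper-quartile scaling, 1 with DESeq2, 0 with FPKM, and 0 to 3 with 1 library left out. Glycolytic enzymes called were 1 in the main analysis, 0 with upper-quartile scaling, 0 with DESeq2, 0 with FPKM, 2 without the filter and 0 to 2 with 1 library left out. The other members called were 1, 0 with FPKM, and 0 to 1 with 1 library left out. With 1 library left out, the median log2 fold change ran from 0.041 to 0.096 for the glycolytic enzymes and from 0.034 to 0.069 for the other members. On the FPKM scale Prune2 had a log2 fold change of -0.24 with an adjusted p of 0.0769; adding 1 to mean FPKM of 1.18 and 0.847 shrinks a log2 difference by construction. Libraries with the same replicate number had correlations of 0.0506, -0.0122 and 0.0251 between their deviations from the group means. The labels name no origin of the replicates, and these correlations cannot tell whether such libraries share a culture. With the number as a replicate block 1490 genes, 3 members and 2 glycolytic enzymes were called, among them Eno1 with an adjusted p of 0.0488.

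None of the members whose estimate changed sign was called. On the FPKM scale these were Slc2a1 (0.0096), Bnip3 (-0.024) and Car9 (0.042). With 1 library left out the log2 fold changes ran from -0.062 to 0.0019 for Gapdh, -0.052 to 0.0027 for Slc2a1, -0.0011 to 0.14 for Pfkfb3, -0.0040 to 0.20 for Pfkfb4 and -0.036 to 0.027 for Vegfa. They ran from -0.034 to 0.20 for Bnip3, -0.39 to 0.13 for Car9, -0.14 to 0.12 for Adm and -0.11 to 0.26 for Egln3. The different scalings of counts moved the median of all genes by under 0.01. Depth limits Car9 and Ankrd37, with at most 16 counts a library.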
